A study of Mus musculus with 5 samples.

Results

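Integrins and the molecules around them were followed from the probe sets annotated to exactly 1 of 36 gene symbols: 21 integrin chains, their cell-surface counter-receptors and junction partners, ligands of selectins and hyaluronan, the cytoplasmic proteins that switch integrins on, and tetraspanins. Of the 36 genes, 34 were measured, by 82 of the 34945 probe sets with 1 symbol, among 18193 genes in all. Itgad, the alphaD chain, and Cd63, a lysosomal tetraspanin, have no probe set under their symbol in the annotation used, and so no value. Brain dendritic cells (DCs) were compared with bone marrow monocytes on Affymetrix arrays, 1 array per sample, all from C57BL/6 mice labelled female and aged 6 to 8 weeks. Brain DCs (2 arrays) were sorted as lineage-negative, CD45-high and CD11c-positive from mice that had received 1000000 B16-Flt3L tumour cells subcutaneously 12 days earlier, a melanoma line named for Flt3 ligand, which expands dendritic cells. Monocytes (3 arrays) were sorted from bone marrow by low side scatter, high CD11b and CD115, and their labels name no treatment. Tissue, cell type and tumour treatment therefore differ together and cannot be told apart. Whether each array is a separate animal is not in the labels, and the p-values cover the spread between these arrays alone, which may be technical.

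Integrins are pairs of an alpha and a beta chain that hold leukocytes to vessel walls, to other cells and to the matrix. Circulating leukocytes roll on selectins, are then activated, and stop when integrins of the beta2 and alpha4 groups grip immunoglobulin-type counter-receptors such as ICAM-1 and VCAM-1. The grip is switched on from inside the cell, when talin and kindlin bind the tail of the beta chain. Tetraspanins organise integrins and other proteins into patches of the membrane. In the healthy brain, dendritic cells are found mainly in the meninges and the choroid plexus.

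Every value below is a log2 value relative to a baseline of its own probe set, so it shows how arrays differ and gives no level that can be set against another gene. A gene's value is the mean of its probe sets. Differences are brain DC minus monocyte on the log2 scale, given with SE from limma fitted over all 18193 genes (n = 2 brain DC and 3 monocyte arrays), and a gene was called at a Benjamini-Hochberg adjusted p under 0.05. With 5 arrays, an exact two-sided permutation test could reach no p under 0.1 and was not used, and the number of arrays limits the precision. In brain DCs 11 of the 34 genes were higher and 6 lower, and 17 were not called. That is 50.0% called, against 33.8% of all genes, 16.9% in each direction. Without Itgax and Itgam, which encode the CD11c and CD11b used for sorting, 10 were higher and 5 lower of 32. The median difference was 0.05 over the 34 genes and 0.09 over all genes. The groups did not overlap in 24 of the 34 genes, against 60.2% of all genes.

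**Figure D1:**
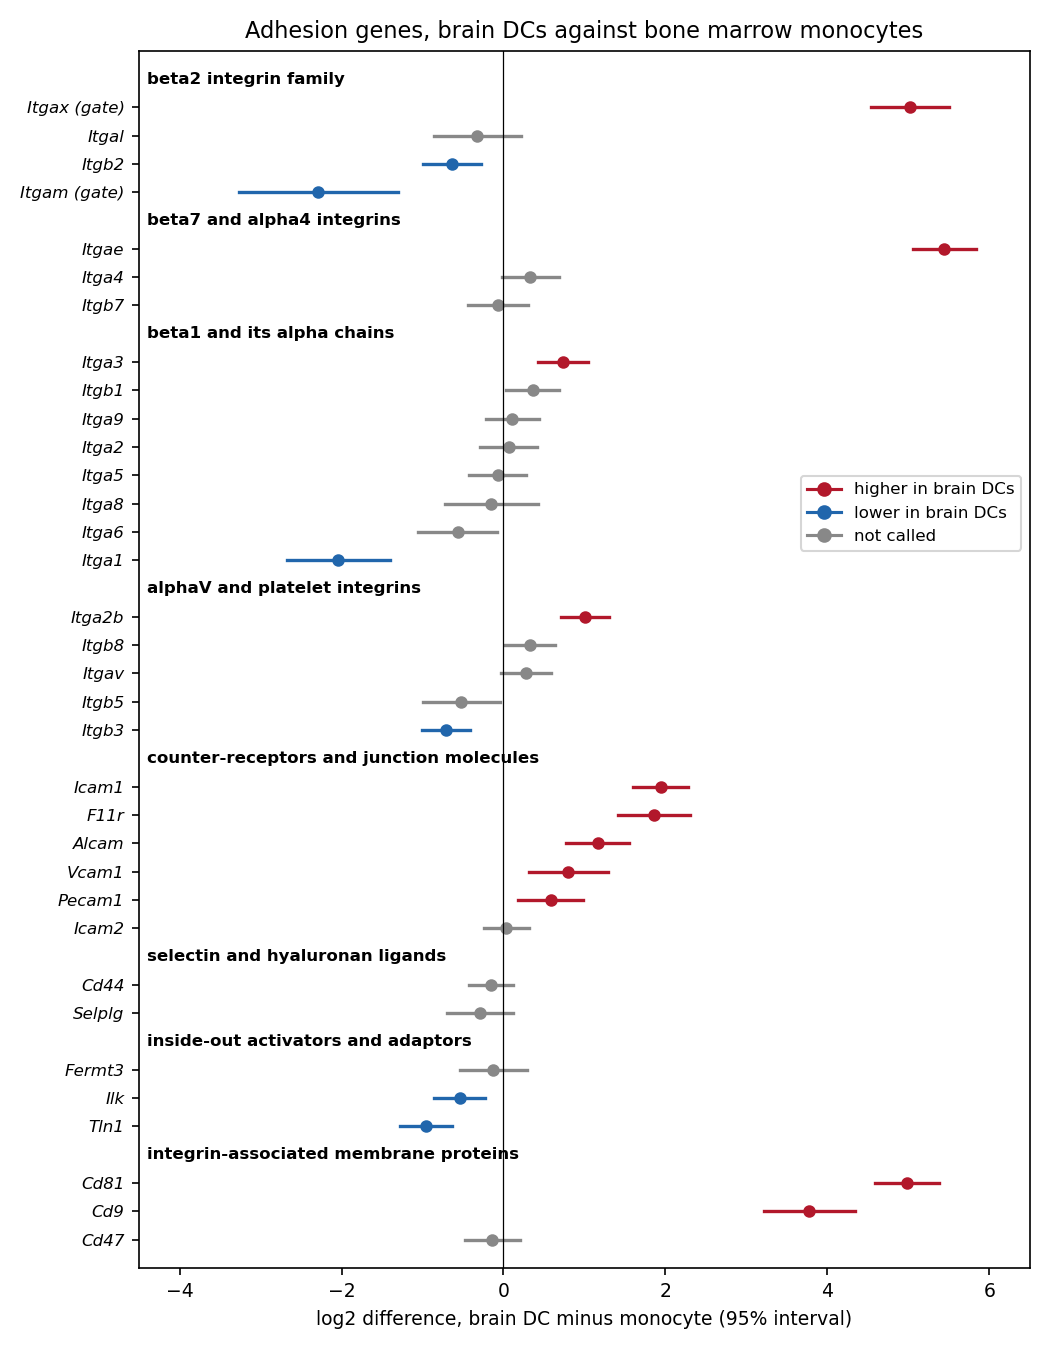
Log2 difference between brain DCs and bone marrow monocytes (x axis) for the 34 measured adhesion genes, grouped by role (y axis). Points are limma estimates and bars their 95% intervals; red marks genes higher in brain DCs, blue lower and grey not called. Itgae, Itgax, Cd81 and Cd9 lie between 3.78 and 5.44, apart from the rest.

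The 2 sort genes checked the labels and are not findings. Itgax was at 1.28 and 1.67 in brain DC arrays, against -3.60, -3.81 and -3.21 in monocyte arrays. Itgam was at 0.25 and 1.59 in brain DC arrays, against 3.27, 2.65 and 3.68 in monocyte arrays. Both separated the groups in the direction of the gates, by 5.02 ± 0.21 (limma adjusted p = 5.9e-06) and by -2.28 ± 0.42 (limma adjusted p = 0.00491), and the brain DC arrays differed from each other in Itgam by more than in any other of the 34 genes called. In the reference annotation Itgam and Itgax are adjacent coding genes on chromosome 7, followed by Itgad. The 250 bases before the start of 4 genes are shown because these are the gate pair, which lie side by side and differ in opposite directions, and the genes with the largest decrease and the second-largest increase outside the gates. The sequences are RefSeq's, build GRCm38.p6, read 5′ to 3′ along the gene: Itgax at chr7:128129300-128129549 (plus strand), Itgam at chr7:128062390-128062639 (plus strand), Itga1 at chr13:115101965-115102214 (minus strand) and Cd81 at chr7:143052500-143052749 (plus strand).
Itgax: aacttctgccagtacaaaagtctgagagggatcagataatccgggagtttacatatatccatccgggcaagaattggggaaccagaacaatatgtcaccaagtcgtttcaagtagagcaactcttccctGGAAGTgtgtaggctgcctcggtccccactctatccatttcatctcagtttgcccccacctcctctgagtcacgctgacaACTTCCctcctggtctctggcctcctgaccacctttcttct
Itgam: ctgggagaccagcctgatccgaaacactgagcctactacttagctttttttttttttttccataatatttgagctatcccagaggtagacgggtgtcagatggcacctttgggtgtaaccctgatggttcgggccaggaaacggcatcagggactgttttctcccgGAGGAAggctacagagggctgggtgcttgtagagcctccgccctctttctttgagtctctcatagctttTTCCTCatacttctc
Itga1: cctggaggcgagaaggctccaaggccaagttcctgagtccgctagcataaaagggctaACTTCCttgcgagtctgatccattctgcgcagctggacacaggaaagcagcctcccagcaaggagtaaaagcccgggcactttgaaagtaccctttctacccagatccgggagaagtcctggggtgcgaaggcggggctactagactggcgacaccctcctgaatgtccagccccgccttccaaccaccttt
Cd81: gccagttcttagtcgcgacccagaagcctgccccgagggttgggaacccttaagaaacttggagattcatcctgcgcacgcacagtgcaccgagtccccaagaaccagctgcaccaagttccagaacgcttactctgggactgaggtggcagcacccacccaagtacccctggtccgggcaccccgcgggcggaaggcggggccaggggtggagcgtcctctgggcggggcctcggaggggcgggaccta
Capitals mark the letters GAGGAA and GGAAGT, which occur in sites of the ETS family, to which the myeloid factor PU.1 belongs, or their reverse complements, which are the same letters on the other strand; the 2 can overlap each other. The RUNX-type letters TGTGGT were searched too. Itgax held GGAAGT in 2 places, 1 on each strand, with leftmost printed bases at -121 and -41 from the gene start. Itgam held GAGGAA in 2 places, at -84 and -15. Itga1 held GGAAGT once, at -192, and the Cd81 window held none of the 3. Of 26 members with a promoter in the reference, 11 held GAGGAA (42.3%, against 25.9% of 27025 genes), 6 held GGAAGT (23.1%, against 22.2%) and 4 held TGTGGT (15.4%, against 15.9%). A match is a run of letters and not a site.

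Among the beta2 integrins, the leukocyte-specific group, the shared beta chain was lower in brain DCs. Itgb2, which pairs with Itgal, Itgam, Itgax and Itgad, was at -0.25 and 0.10 in brain DC arrays, against 0.67, 0.56 and 0.43 in monocyte arrays. It was 1.55-fold lower (-0.63 ± 0.15, limma adjusted p = 0.017), with no overlap between the groups. It was no longer called without brain DC replicate 1 (-0.46, limma adjusted p = 0.0916) or monocyte replicate 1 (-0.57, limma adjusted p = 0.0592). Itgal, the alpha chain of LFA-1, which binds the ICAMs, was at -0.16 and 0.44 in brain DC arrays, against 0.53, 0.73 and 0.15 in monocyte arrays. The groups overlapped and the difference of -0.32 was not called, with a 95% interval from -0.86 to 0.22.

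Itgae had the largest difference of any member and ranked 21st by size among all genes. It encodes CD103, the alphaE chain that pairs with beta7, binds E-cadherin and marks cross-presenting and intestinal dendritic cells. Itgae was at 4.69 and 5.20 in brain DC arrays, against -0.50, -0.51 and -0.48 in monocyte arrays. It was 43.5-fold higher (5.44 ± 0.17, limma adjusted p = 2.13e-06), and its 2 probe sets gave 5.31 and 5.58. In bulk samples a larger share of cells carrying a transcript and more of it per cell cannot be told apart. Its partner Itgb7 was at 0.72 and 1.03 in brain DC arrays, against 0.94, 1.10 and 0.77 in monocyte arrays. The groups overlapped, and the difference of -0.06 was not called, with an interval from -0.43 to 0.30. Cdh1, which encodes E-cadherin itself, was at 0.77 and 3.14 in brain DC arrays, against -0.26, -0.01 and -0.14 in monocyte arrays. It was higher by 2.10 ± 0.58 (limma adjusted p = 0.0272), and lost its call without monocyte replicate 1, 2 or 3; it was 0.91 without brain DC replicate 2 and 3.28 without brain DC replicate 1.

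Itga4, the alpha4 chain that pairs with beta1 or beta7 and binds VCAM-1 and MAdCAM-1, gave no single answer. As a gene it was at 0.97 and 0.82 in brain DC arrays, against 0.69, 0.34 and 0.65 in monocyte arrays, a difference of 0.33 that was not called. Its 5 probe sets ran from -0.74 to 2.40. In a fit to single probe sets, which called 30.2% of all probe sets, 1 of the 5 was higher and 2 were lower, so neither direction can be given for Itga4.

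Of the 8 genes of the beta1 group, receptors for matrix, 1 was higher and 1 lower, or 25.0% called, against 33.8% of all genes. Itga1, which pairs with beta1 and binds collagen, was the member with the largest decrease apart from the gate gene Itgam. It was at 0.74 and 0.70 in brain DC arrays, against 2.24, 2.76 and 3.27 in monocyte arrays. It was 4.11-fold lower (-2.04 ± 0.27, limma adjusted p = 0.0012), and both of its probe sets were lower, by -1.72 and -2.36. Itga2, the alpha chain of the other classical collagen receptor and its neighbour on chromosome 13, was at 0.18 and -0.12 in brain DC arrays, against 0.09, -0.03 and -0.18 in monocyte arrays. Those groups overlapped and the difference of 0.07 was not called. Itga3, a laminin receptor chain, was 1.67-fold higher (0.74 ± 0.13, limma adjusted p = 0.00437), with values of 0.26 and 0.45 in brain DC arrays, against -0.28, -0.42 and -0.45 in monocyte arrays. Of its 3 probe sets, 2 were called higher, at 1.09 and 0.80, and the other was at 0.33 and not called. Itga6, another laminin receptor chain, was at -0.96 and -0.98 in brain DC arrays, against -0.74, -0.01 and -0.46 in monocyte arrays. Its difference of -0.56 missed the threshold (limma adjusted p = 0.0758), and it passed without monocyte replicate 1 (-0.73, limma adjusted p = 0.0337).

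The remaining chains of the beta1 group were not called. Itgb1 itself was at 0.26 and 0.24 in brain DC arrays, against -0.09, 0.05 and -0.29 in monocyte arrays, a difference of 0.36 (limma adjusted p = 0.0885). Only 1 of its 6 probe sets was called, at 1.12, while the others lay between -0.13 and 0.49. Itga5, the fibronectin receptor chain, differed by -0.07, Itga8, an RGD-binding chain, by -0.15, and Itga9, which binds tenascin and VCAM-1, by 0.11. In all 3 the groups overlapped, and the 95% intervals were -0.42 to 0.28, -0.72 to 0.42 and -0.22 to 0.44.

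The alphaV and platelet integrins went both ways. Itga2b, the alpha chain of the platelet fibrinogen receptor, was at 0.81 and 0.70 in brain DC arrays, against -0.14, -0.28 and -0.34 in monocyte arrays. It was 2.01-fold higher (1.01 ± 0.13, limma adjusted p = 0.000966). Its partner Itgb3 was at -0.53 and -0.50 in brain DC arrays, against 0.10, 0.32 and 0.16 in monocyte arrays, 1.64-fold lower (-0.71 ± 0.13, limma adjusted p = 0.00464). The decrease of Itgb3 rested on 1 of its 2 probe sets, at -1.64, while the other was at 0.22, and read from that probe set Itgb3 was not called. Of 7 genes of platelets and megakaryocytes measured, 4 were higher and 0 lower, or 57.1% called, against 33.8% of all genes. The 4 were the platelet chemokine genes Ppbp (4.77 ± 0.21) and Pf4 (2.90 ± 0.16) and the glycoprotein genes Gp1bb (1.20 ± 0.15) and Gp9 (0.90 ± 0.14). The 3 not called were Gp5 (0.30), Gp6 (0.09) and Treml1 (0.35). The mean of that list lay between 1.17 and 1.31 in brain DC arrays and between -0.36 and -0.15 in monocyte arrays, and its part in the Itga2b difference was not tested. Itgav, the chain that pairs with beta3, beta5 and beta8, was at 0.28 and not called, with 5 probe sets from -0.50 to 0.72, of which 1 was called higher. Itgb8, which with alphaV frees active TGF-beta from its latent form, was at 0.32 and not called (limma adjusted p = 0.0996). Itgb5 was at 0.48 and 1.04 in brain DC arrays, against 1.46, 1.05 and 1.33 in monocyte arrays. Its difference of -0.52 missed the threshold (limma adjusted p = 0.0868), and it passed with brain DC replicate 2 left out (-0.80, limma adjusted p = 0.0273), and 1 of its 4 probe sets was called, at -0.88.

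**Figure D2:**
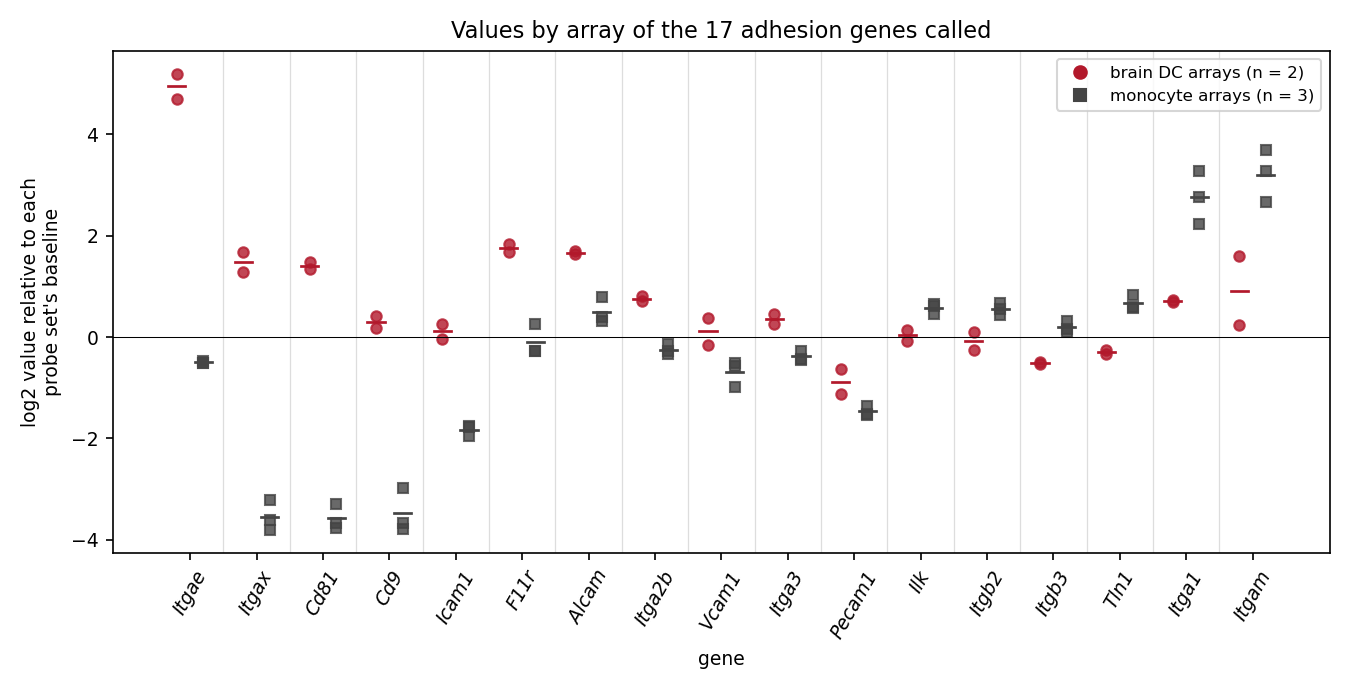
Log2 value relative to each probe set's baseline (y axis) in every array for the 17 adhesion genes called (x axis), ordered by difference; red circles are the 2 brain DC arrays, grey squares the 3 monocyte arrays, and short lines the group means. Itgae stood above the monocytes with brain DC arrays near 5, while for Itgax, Cd81 and Cd9 the monocyte arrays lay at -2.98 or below.

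Of the 6 surface molecules that integrins and neighbouring cells hold on to, 5 were higher in brain DCs, 0 lower and 1 not called, with a median of 0.98. That is 83.3% called, against 33.8% of all genes. Icam1, the ligand of LFA-1 that inflammatory signals induce, was at -0.03 and 0.27 in brain DC arrays, against -1.77, -1.95 and -1.76 in monocyte arrays. It was 3.85-fold higher (1.94 ± 0.15, limma adjusted p = 9.22e-05). Icam2, a second LFA-1 ligand that is made constitutively, was at 0.54 and 0.64 in brain DC arrays, against 0.59, 0.55 and 0.52 in monocyte arrays. The groups overlapped, and the difference of 0.04 had an interval from -0.24 to 0.31. F11r, the junctional molecule JAM-A, was 3.63-fold higher as a gene (1.86 ± 0.19, limma adjusted p = 0.000353). Its 2 probe sets disagreed: one was at 3.48 and 3.69 in brain DC arrays, against 0.41, -0.72 and -0.66 in monocyte arrays, while the other differed by -0.19 and was not called. When the second, which may match several transcripts by its suffix, was left out, F11r differed by 3.91.

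Alcam, an adhesion molecule that binds CD6 on T cells, was at 1.70 and 1.63 in brain DC arrays, against 0.40, 0.32 and 0.78 in monocyte arrays. It was 2.24-fold higher (1.16 ± 0.17, limma adjusted p = 0.0016), with 4 of its 5 probe sets called higher and the other at 0.29. Vcam1, the counter-receptor of alpha4 integrins, was at 0.37 and -0.15 in brain DC arrays, against -0.98, -0.51 and -0.58 in monocyte arrays. Its increase was 1.74-fold (0.80 ± 0.21, limma adjusted p = 0.0227), 1 of its 3 probe sets was called, at 1.82, and the gene lost its call without brain DC replicate 1 (0.54, with limma's adjusted p = 0.129) or monocyte replicate 1 (0.65, limma adjusted p = 0.0622). Pecam1, the junction molecule CD31 that leukocytes also carry, was at -0.64 and -1.13 in brain DC arrays, against -1.35, -1.54 and -1.51 in monocyte arrays. Its increase was 1.50-fold (0.59 ± 0.17, limma adjusted p = 0.0342), and it was no longer called when brain DC replicate 1 was left out (0.34, limma adjusted p = 0.172) or without monocyte replicate 1, 2 or 3 (limma adjusted p = 0.0589, 0.0908 and 0.0878). Vessel cells carry Vcam1, Pecam1, Icam1 and F11r too. Of 8 endothelial genes measured, 5 were higher and 0 lower, or 62.5% called, against 33.8% of all genes. Among them were the tight junction gene Cldn5 (2.56 ± 0.24), the transporter gene Slco1a4 (1.36 ± 0.19), Esam (0.75 ± 0.19) and Tek (0.73 ± 0.14). Without brain DC replicate 1 there were 3 higher, and without brain DC replicate 2 there was 1 lower. The mean of that list lay between 0.36 and 0.50 in brain DC arrays and between -0.32 and -0.25 in monocyte arrays. The 3 genes not called were Cdh5, a defining endothelial cadherin (0.25), and, with negative differences, Flt1 (-0.35) and Emcn (-0.27). The part of the list in the adhesion genes was not tested.

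The ligands of rolling and of hyaluronan were not called. Selplg, the P-selectin ligand PSGL-1, was at -0.53 and -0.03 in brain DC arrays, against 0.11, -0.06 and -0.02 in monocyte arrays. The groups overlapped and the difference was -0.29 (interval from -0.69 to 0.11). It became a call without brain DC replicate 2 (-0.54, limma adjusted p = 0.043). Cd44, the hyaluronan receptor, differed by -0.15 as a gene, but its 4 probe sets included 1 called higher, at 1.08, and 1 called lower, at -0.99. Leaving out the probe sets that may match several transcripts turned Cd44 into a call (-0.56, limma adjusted p = 0.0115), so its direction depends on the probe set.

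Of the 3 members in the cytoplasm that activate integrins or tie them to actin, 2 were lower and 1 was not called (66.7% called, against 33.8% of all genes). Tln1, talin 1, was at -0.34 and -0.25 in brain DC arrays, against 0.59, 0.83 and 0.57 in monocyte arrays. It was 1.95-fold lower (-0.96 ± 0.14, limma adjusted p = 0.00162). Its 3 probe sets were all called, at -2.50, -0.98 and, in the other direction, 0.60. Ilk, the integrin-linked pseudokinase, was 1.45-fold lower (-0.54 ± 0.14, limma adjusted p = 0.0191), with values of -0.08 and 0.14 in brain DC arrays, against 0.61, 0.46 and 0.64 in monocyte arrays. Ilk was no longer called without brain DC replicate 1 (-0.43, limma adjusted p = 0.0956), without monocyte replicate 1 or 3 (both limma adjusted p = 0.0626), and with the replicate number as a block (limma adjusted p = 0.0657). Fermt3, kindlin 3, the blood-cell kindlin, was at -0.19 and -0.02 in brain DC arrays, against 0.02, -0.25 and 0.28 in monocyte arrays. The groups overlapped, the difference was -0.12 (interval from -0.54 to 0.29), and none of its 4 probe sets was called.

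Counted by at least 1 called probe set, 15 of the 34 genes were higher (44.1%, against 19.8% of all genes) and 10 lower (29.4%, against 21.7% of all genes). Itga4, Cd44 and Tln1 had probe sets called in both directions and are in both counts.

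**Figure D3:**
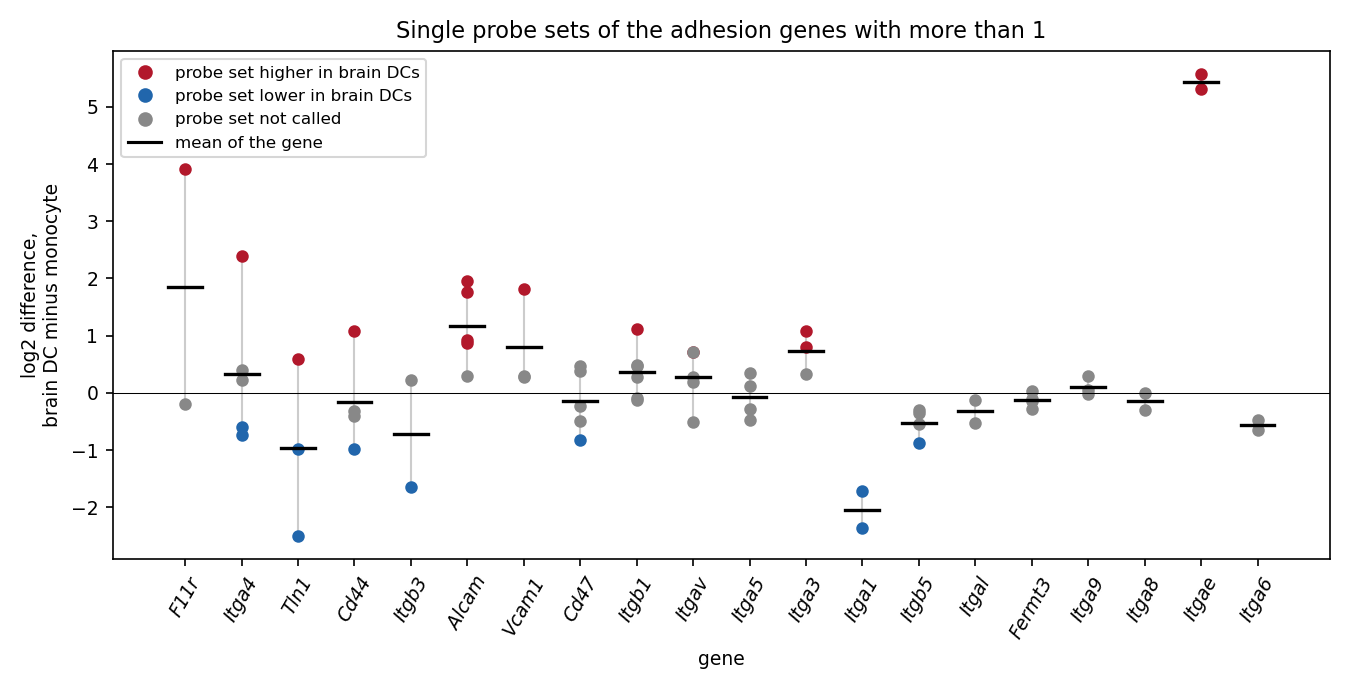
Log2 difference of each single probe set (y axis) for the 20 adhesion genes that have more than 1 (x axis), ordered by the spread between probe sets; red marks probe sets higher in brain DCs, blue lower, grey not called, and black bars the mean of the gene. F11r, Itga4, Tln1, Cd44 and Itgb3, with the widest spreads, have probe sets on both sides of 0. So do Itga5, Itga9, Itgav, Itgb1, Fermt3 and Cd47, while those of Itgae all lie above 0 and those of Itga1 all below.

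After Itgae and the gate gene Itgax, the tetraspanins Cd81 and Cd9 had the next largest differences of the 34 genes. Cd81, a partner of integrins and of the B cell co-receptor, was at 1.34 and 1.48 in brain DC arrays, against -3.66, -3.29 and -3.76 in monocyte arrays. It was 31.6-fold higher (4.98 ± 0.17, limma adjusted p = 2.92e-06). Cd9, a tetraspanin that associates with beta1 integrins and is abundant on platelets, was at 0.18 and 0.42 in brain DC arrays, against -3.67, -2.98 and -3.78 in monocyte arrays. It was 13.7-fold higher (3.78 ± 0.24, limma adjusted p = 4.56e-05). In both genes the brain DC arrays lay near or somewhat above the baseline and the monocyte arrays far below it, the reverse of Itgae. Of the platelet genes given above, 4 of 7 were higher, and microglia carry Cd81 and Cd9 as well. Of 7 microglial genes measured, 6 were higher and 1 lower (100% called, against 33.8% of all genes). Among them were Gpr34 (3.64 ± 0.21), P2ry12 (2.49 ± 0.33) and Olfml3 (2.09 ± 0.18), against Cx3cr1, which was lower (-2.56 ± 0.22). The mean of that list lay between 1.03 and 1.18 in brain DC arrays and between -0.53 and -0.32 in monocyte arrays, and its part in the tetraspanin differences was not tested. Cd47, the signal that binds the inhibitory receptor SIRPA and also associates with integrins, differed by -0.14 and was not called (interval from -0.48 to 0.21), and 1 of its 5 probe sets was lower, at -0.83.

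Further genes of the adhesion pathway, outside the 36, were read from 8 lists, with values for 144 genes: 35 higher, 27 lower and 82 not called, which is 43.1% called, against 33.8% of all genes; 24.3% were higher and 18.8% lower, against 16.9% of all genes in each direction. The list of further proteins that switch integrins on, hold them back or signal beside them was mostly lower where called. It mixes these roles, so its counts give no direction for integrin activation. Of its 24 genes, 1 was higher (4.17%), 7 were lower (29.2%) and 16 were not called, with a median of -0.04. That is 33.3% called, against 33.8% of all genes. Apbb1ip, the RIAM adaptor that brings talin to the membrane, was at -1.17 and -0.53 in brain DC arrays, against 1.03, 0.56 and 1.13 in monocyte arrays, a difference of -1.76 ± 0.24 (limma adjusted p = 0.00132). Fyb, the ADAP adaptor, was lower by -1.75 ± 0.13, and Fgr, a Src-family kinase of myeloid cells, by -1.46 ± 0.14. Rap1gap2, a GTPase-activating gene whose product turns Rap1 off, was lower by -1.63 ± 0.17. The 1 higher gene, Itgb1bp1 (1.34 ± 0.18), encodes ICAP-1, which binds the beta1 tail and competes with talin; it was named after its value was seen. The count of 1 higher became 3 without brain DC replicate 2 or with quantile normalisation, 4 by the most variable probe set and 0 without the probe sets that may match several transcripts.

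In the link from integrins to actin, 7 of 23 genes were higher and 4 lower, or 47.8% called, against 33.8% of all genes. By the probe set of highest mean, 4 were higher and 7 lower, and by the most variable probe set 7 were lower. The adaptor gene Lims1, which encodes PINCH-1, a partner of Ilk, was lower (-1.69 ± 0.12), as were vinculin, Vcl (-1.25 ± 0.16), and filamin A, Flna (-1.22 ± 0.18), whereas Vasp, an actin filament elongation factor, was higher (1.51 ± 0.17). The median of the list was -0.08. Of 6 further integrin chains, limma called 0 after adjustment (0%, against 33.8% of all genes) and 1, Itgb2l, at an unadjusted p under 0.05. The differences of the 6 chains lay between -0.20 and 0.65 (median 0.09). Of these, 1, the integrin-like gene Itgbl1, was called without brain DC replicate 2.

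Of the selectins, Selp, P-selectin of platelets and endothelium, was at 0.90 and 0.51 in brain DC arrays, against -0.30, -0.23 and -0.25 in monocyte arrays, and was higher (0.96 ± 0.15, limma adjusted p = 0.00237). Sele, E-selectin of activated endothelium, differed by 0.22 and was not called. Among 10 selectins and mucin-type ligands, 4 were higher and 0 lower (median 0.28), with Cd34 (2.91 ± 0.43), Cd24a (2.70 ± 0.21) and Podxl (0.78 ± 0.17) beside Selp; Podxl lost its call without brain DC replicate 2 (limma adjusted p = 0.0641). The list of selectins and mucin-type ligands had 40% called, against 33.8% of all genes. The enzymes that build selectin ligands went both ways, 3 of 15 higher and 7 lower (median -0.39), or 66.7% called, against 33.8% of all genes. The sialyltransferase genes St3gal4 (2.46 ± 0.25) and St3gal6 (1.53 ± 0.19) were higher, while the galactosyltransferase gene B4galt1 (-1.13 ± 0.15) and the sulfotransferase gene Chst1 (-1.43 ± 0.35) were lower. The 7 lower enzymes became 3 without brain DC replicate 1 or monocyte replicate 2, and 4 without brain DC replicate 2 or monocyte replicate 1. Chst1 lost its call without either brain DC array or monocyte replicate 2.

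Of 24 genes of transmigration and cell contact, 8 were higher and 2 lower (median 0.20), and 5 were higher when brain DC replicate 1 was left out, as when either of monocyte replicates 1 and 2 was. With all arrays, 41.7% of this list was called, against 33.8% of all genes. Cadm1, an adhesion molecule of cross-presenting dendritic cells, was higher (4.91 ± 0.12), as was Cd2, a T and NK cell molecule that binds CD48 in mice (1.48 ± 0.15), and Ceacam1, an adhesion receptor of leukocytes and epithelium, was lower (-2.17 ± 0.20). Among 19 further tetraspanins and CD47 partners, 8 were higher and 4 lower (median 0.38), which makes 63.2% called, against 33.8% of all genes. Tspan33 (2.67 ± 0.14), Tspan13 (2.55 ± 0.19) and Tspan4 (1.57 ± 0.18) were higher, and Tspan14 was lower (-1.68 ± 0.21). Of 23 matrix ligands and CD44 partners, 4 were higher and 3 lower (median 0.12), or 30.4% called, against 33.8% of all genes. Fibronectin, Fn1 (-5.94 ± 0.20), the ligand of the Itga5 and Itga4 integrins, and Hmmr, a hyaluronan-binding protein of dividing cells (-1.86 ± 0.37), were lower; Fn1 is on the monocyte marker list too. Vwf, the platelet-tethering protein of endothelium and megakaryocytes (4.48 ± 0.17), and Ezr, which links CD44 to actin (0.98 ± 0.12), were higher. The 3 lower genes became 5 without monocyte replicate 3. Vwf is the coding gene next to Cd9 in the reference annotation, and Tspan32, which was lower (-1.20 ± 0.12), is the one next to Cd81.

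**Figure D4:**
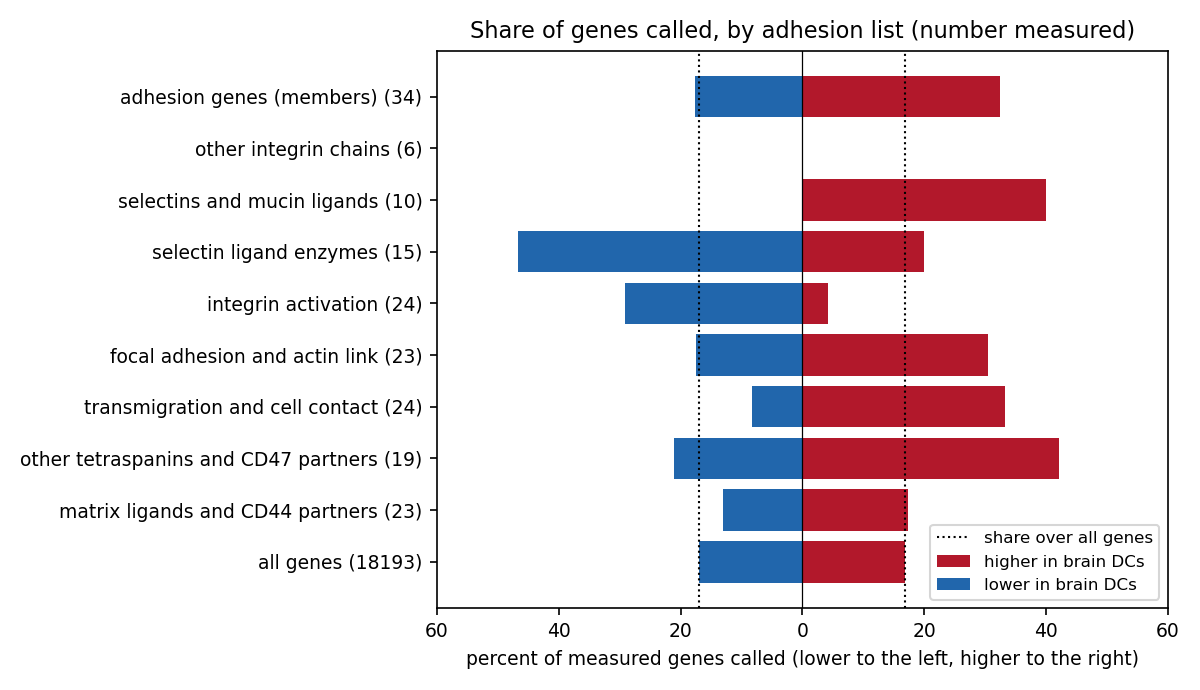
Percent of measured genes called in each adhesion list (x axis, lower in brain DCs to the left in blue, higher to the right in red), with the number of genes measured in brackets and dotted lines at the share of all genes, 16.9% in each direction. The 34 adhesion genes stand at 32.4% higher and 17.6% lower, integrin activation at 4.17% and 29.2%.

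Across the series, the 2 brain DC arrays correlated at 0.83 over all genes and the 3 monocyte arrays at 0.90 to 0.91, as a description over genes, which are not independent. All 7 measured dendritic cell markers were higher in brain DCs and all 5 monocyte markers were lower (100% of each list called, against 33.8% of all genes). The monocyte markers include Csf1r, a gene of the monocyte gate and so only a check. The defining markers outside the gates stood with the labels. The differences were 5.64 for Xcr1, 4.06 for Cd209a, 4.001 for Ccr7 and 3.11 for Batf3 among the dendritic cell markers, and -5.36 for F13a1 and -1.15 for Ccr2 among the monocyte markers. Ptprc, which encodes the CD45 of the brain gate, was lower in brain DCs (-0.63 ± 0.14; not called without brain DC replicate 2), and Csf1r, which encodes the CD115 of the monocyte gate, was lower by -1.40 ± 0.18. Of the genes of neutrophils and granulocyte precursors, 4 of 7 were lower in brain DCs (57.1% called, all lower, against 33.8% of all genes). The 4 were Cd177 (-5.67 ± 0.15), Mpo (-4.64 ± 1.02), Prtn3 (-4.53 ± 0.34) and Elane (-2.38 ± 0.42). Mpo was at 1.81 in monocyte replicate 1, against 5.72 and 5.22 in the other 2, and lost its call without either brain DC array (-4.72 and -4.57). The other 3 genes, not called, were at 1.25 for Ngp, 1.33 for Camp and 0.92 for Ltf. With the replicate block 2 of the list were called higher. The mean of the list was 0.80 to 0.99 in brain DC arrays, and it was 1.66 in monocyte replicate 1 and 3.43 to 3.47 in the other 2. Of choroid plexus genes 2 of 5 were higher, Ttr (7.22 ± 0.12) and Clic6 (0.67 ± 0.15), of NK cell genes 2 of 5, Klrd1 (6.29 ± 0.30) and Gzma (2.75 ± 0.31), of T cell genes 1 of 6, Cd3d (0.45 ± 0.14), and of B cell genes 1 of 5, Ms4a1 (1.00 ± 0.16). The shares called were 40%, 40%, 16.7% and 20% in that order, against 33.8% of all genes. The choroid plexus genes not called were Folr1 (0.22), Kl (0.41) and Kcnj13 (0.58). Of the NK cell genes, Ncr1 (0.10), Prf1 (0.27) and Eomes (0.08) were not called. The choroid plexus mean thus rests mostly on Ttr, and the NK cell mean on Klrd1 and Gzma. With the probe sets that may match several transcripts left out, these 2 counts were 1 each, as Ttr and Gzma had no value. Without brain DC replicate 2 the choroid plexus count was 1, without that or any monocyte array the T cell count was 0, and without monocyte replicate 1 the B cell count was 2. The NK cell list, whose cells carry Cd2, averaged 0.90 to 1.28 in brain DC arrays and -0.90 to -0.67 in monocyte arrays. The poly-A controls, RNA spiked in at labelling and read by 24 probe sets, all gave higher values on the brain DC arrays (median 2.59), and so did all 18 probe sets of the hybridisation controls (median 1.04). The part of these differences in the adhesion genes was not tested.

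**Figure D5:**
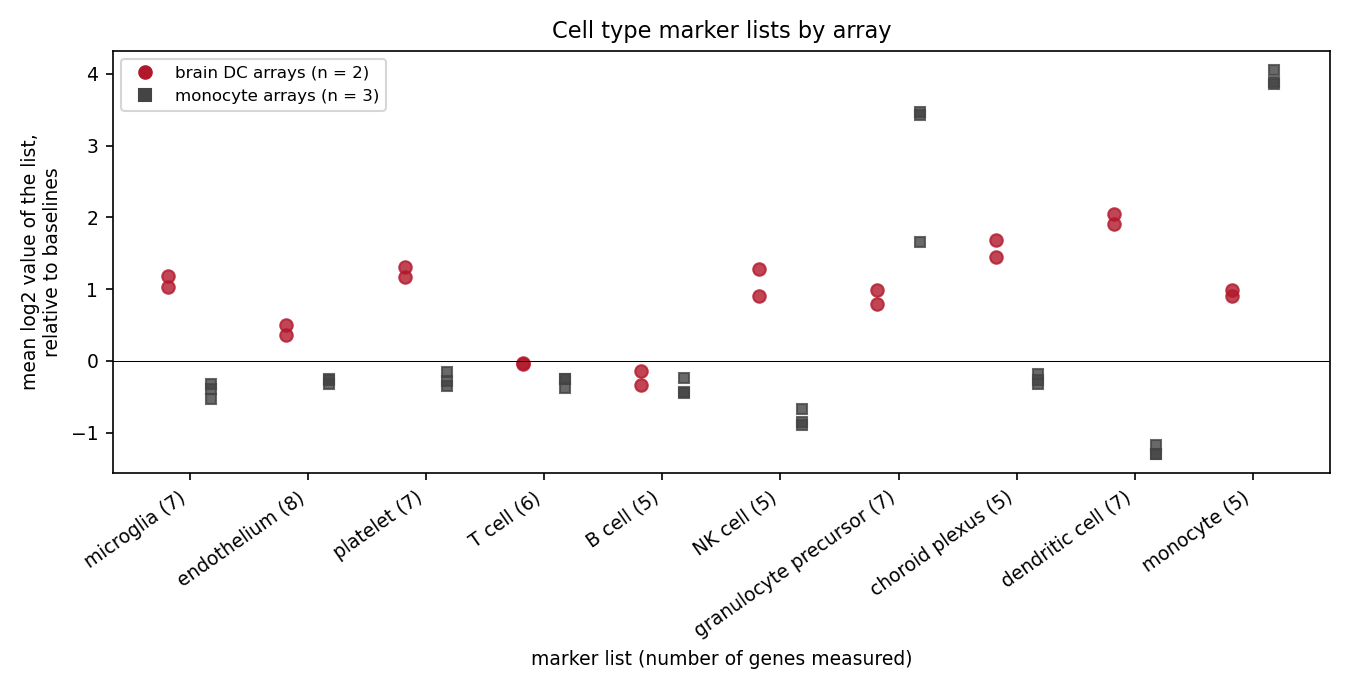
Mean log2 value relative to baseline (y axis) of each cell type marker list (x axis, number of genes measured in brackets) in every array; red circles are the 2 brain DC arrays and grey squares the 3 monocyte arrays. Platelet, microglial, endothelial, choroid plexus, NK cell, T cell and dendritic cell lists were higher in both brain DC arrays than in any monocyte array. The monocyte and granulocyte precursor lists were lower in both, and the B cell list overlapped.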

How the data were processed

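Cells of 2 populations were compared on 5 arrays. The deposited log2 values were made by the authors with RMA, per the submitters' processing notes; their version, their centring and the arrays normalised together are not stated there. Base 2 is inferred from the values: the widest range over the 5 arrays within a probe set was 8.86. Values lie around 0 within each probe set, so levels and detection are lost, and a filter on dim genes could not be applied.

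Of 45101 probe sets, 34945 had 1 gene symbol, 932 several and 9160 none in the platform annotation, and 64 are controls. By Entrez identifier, 34741 of the first were found in a GRCm38.p6 gene table and 0 symbols differed. Genes were the mean of their probe sets. The limma package (version 3.58.1, R 4.3.3; lmFit, eBayes, 3 residual and 4.43 prior degrees of freedom, prior SD 0.165) was fitted over 18193 genes, with Benjamini-Hochberg adjustment over them, and checked on simulated data. Alternatives changed the probe set rule, the scaling, the variance model and the arrays, or added the replicate number as a block. The members, lists and tests were chosen with earlier results of these data known. Every measured member is described; of each further list up to 4 called genes with the largest difference and no overlap are named, beside Selp, Sele, Ptprc and Csf1r; a further gene of that rule is not reported here. Itgb1bp1, Itgb2l, Itgbl1, Cdh5, Tspan32, Ngp, Camp, Ltf, Flt1, Emcn, Gp5, Gp6, Treml1, Folr1, Kl, Kcnj13, Ncr1, Prf1 and Eomes, outside that rule, were named after their values were seen. Promoters were matched by symbol to a RefSeq table, which held 26 of the 36 genes. The labels name nothing that same-numbered arrays of the 2 groups share beyond the number. Such arrays deviated together by correlations of 0.05 and 0.09. With 2 brain DC arrays the deviations mirror each other, giving -0.05 and -0.09 for differing numbers, so the correlations cannot settle whether arrays were paired.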

Additional observations from a re-analysis of the deposited data

How the results depend on the processing

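Under 12 alternatives, 11 of the 17 called genes kept direction and call in each: Itgae, Itgax, Itgam, Itga1, Itga2b, Icam1, F11r, Alcam, Tln1, Cd9 and Cd81. Of these, Itgax, Itgam, Itga2b, Icam1, Cd9 and Cd81 have 1 probe set each, so the probe set rules could not change their differences. Itgb2, Vcam1, Ilk and Pecam1 lost the call when an array was left out, Ilk also with the replicate block and Pecam1 also under 3 further settings. Itga3 and Itgb3 lost it by the probe set of highest mean, where Itgb3 changed sign (0.22); values are relative to each probe set's baseline and 3 of 5 arrays are monocytes, so that rule ranks no signal level and says little of a gene's stability. That rule also gave 3.91 for F11r, 1.95 for Alcam, -2.50 for Tln1 and 1.82 for Vcam1. The other changes of sign were in genes not called: by the probe set of highest mean Itga9 (-0.0126) and Itgav (-0.50), by the most variable probe set Cd44 (1.08), with quantile normalisation Itga5 (0.0302) and Itgb7 (0.16), with median centring Icam2 (-0.0052), and with the replicate block Itga2 (-0.0028) and Fermt3 (0.0085). Leaving out 1 array at a time gave -0.0838 to 0.2163 for Itga2, -0.2047 to 0.0624 for Itga5, -0.398 to 0.0392 for Itga8, -0.2199 to 0.0912 for Itgb7, -0.0126 to 0.0828 for Icam2, -0.2587 to 0.0085 for Fermt3 and -0.3108 to 0.0385 for Cd47.

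Members called were 9 to 11 higher and 4 to 8 lower with 1 array left out, 3 to 7 lower without the gate genes (3 without brain DC replicate 1), and 11 higher and 5 lower with the replicate block. Counted by at least 1 called probe set they were 15 higher and 10 lower (14 and 9 without the gate genes), a looser rule under which Itga4, Cd44 and Tln1 count in both directions. By the labels, same-numbered arrays share only the number, and the block leaves monocyte replicate 3 without a partner. A brain DC array left alone was assumed to vary like the monocytes. The causes of these changes were not tested. The planned search of protein tails was not run. Precision is limited by 5 arrays, and signal over background is not in the deposited values.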
